A study of Mus musculus with 12 samples.

Results

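The regions described here are distal intergenic ATAC peaks, the accessible stretches of DNA that lay farthest from any gene start in brain macrophages of bone marrow (BM) chimeric mice. A peak counted as a member when the annotation in the authors' merged table called it intergenic, placed it over 100 kb from the nearest transcription start site, and did not put it in an LTR, LINE or SINE repeat element. No accessibility value entered this choice. The rule gave 2103 of the 60288 merged peaks of untreated mice (3.49%) and 2076 of the 54953 merged peaks of mice given lipopolysaccharide (LPS) (3.78%). The members of each treatment were compared within their own table, and 1278 members of both tables covered the same place, with at least 50% reciprocal overlap.

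The study asked how far macrophages that engraft the brain after BM transplantation come to resemble the microglia they live beside, at rest and after a bacterial challenge. All donors and recipients were labelled as wild type C57BL/6J. The paper describes the donor marrow as congenic, with the CD45.1 form of the gene. This difference in genotype goes with the contrast of graft and host and cannot be told apart from it. Recipients were irradiated with 950 cGy, transplanted with donor BM and kept for 3.5 or 9 months per the labels, which do not say which interval applied to which mouse (the paper's account of these profiles uses the longer). Some were left untreated. Others received 2.5 mg/kg of LPS, the endotoxin of Gram-negative bacteria, by intraperitoneal injection 12 h before they were killed. Cells of 2 forms of the leukocyte antigen CD45 were sorted from each brain, CD45.1 for the graft-derived cells and CD45.2 for the host microglia, which had been irradiated in the recipient. The study's gate for both took CD11b+ cells with low CD45 and without the monocyte and neutrophil antigens Ly6C/G. This gave 4 groups of 3 libraries. Mice 4, 5 and 6 supplied both untreated groups, and mice 1, 2 and 3 both LPS groups, with 1 library per population and mouse. ATAC-seq reads open chromatin through a transposase that inserts adapters where DNA is accessible, and the deposited values are tags (read ends) per merged peak.

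Accessible intergenic sites far from genes are mostly candidate enhancers, short elements where transcription factors displace nucleosomes and which can act on a promoter through looping of the chromatin fibre. Others are bound by CTCF, a zinc finger protein at the boundaries of chromatin loops. In macrophages, enhancers are opened by PU.1 together with C/EBP, AP-1, RUNX, IRF and MEF2 factors, and the sets of enhancers in use differ more between tissue macrophages than promoters do. A long gene-free interval can hold many such elements that serve 1 gene, so members were also described as clusters. The nearest start site names a place here and does not show which gene an element acts on.

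The libraries held 8392877.5 to 9107770 tags in untreated mice and 2966364 to 6556594.5 tags after LPS, so a member had a median of 20 tags per library in the first table and 11 in the second. Promoter peaks of microglia and macrophage markers were present in both populations (7 of 9 genes in untreated mice, 6 of 9 after LPS, with Csf1r and Aif1 lacking one in both). Promoter peaks were absent for all 8 T and B cell and all 5 endothelial markers, and reached at most 15.8 normalized tags for neurons (1 of 7 genes at rest, 2 after LPS). The astrocyte promoter with a peak (1 of 5 genes, untreated mice only) held 2.74 to 7.46 normalized tags in CD45.1 and 13.2 to 19.9 in CD45.2 libraries. Oligodendrocyte promoters (2 of 7 genes) held 65.9 to 82.6 normalized tags in CD45.1 and 48.4 to 66.4 in CD45.2 libraries of untreated mice. Neutrophil markers had no promoter peak in untreated mice, whereas 2 of 7 had one after LPS, at 13.1 to 60.0 normalized tags. The part of these cells in the results was not tested. The CD45.2 library of untreated mouse 4 stood apart, with 18.4% of its tags in merged peaks against 29.7% to 39.0% in the other untreated libraries. In bulk samples, fewer cells with an open site and less accessibility per cell cannot be told apart.

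The sequences of 6 members are shown, chosen by a small adjusted p between the populations in both treatments. They are the 3 per direction whose larger adjusted p of the 2 tables was smallest among members called the same way in both, leaving out 1 chromosome whose sequence is not shown. Each is read from the mm9 genome at the coordinates of the untreated table, on the plus strand, and capitals mark matches to the motifs searched. The first 3 were more accessible in graft-derived cells and the last 3 in host microglia.
4930474N05Rik, chr14:37130005-37130125: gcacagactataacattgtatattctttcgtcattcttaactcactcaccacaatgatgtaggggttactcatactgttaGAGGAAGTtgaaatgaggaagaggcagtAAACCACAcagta
Golim4, chr3:75639628-75639742: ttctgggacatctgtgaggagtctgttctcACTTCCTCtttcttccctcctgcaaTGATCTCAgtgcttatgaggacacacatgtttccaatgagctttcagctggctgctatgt
Ube2e3, chr2:78896378-78896507: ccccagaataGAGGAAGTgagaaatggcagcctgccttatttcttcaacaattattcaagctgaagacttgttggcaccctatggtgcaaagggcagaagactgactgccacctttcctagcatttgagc
Pex2, chr3:5860586-5860702: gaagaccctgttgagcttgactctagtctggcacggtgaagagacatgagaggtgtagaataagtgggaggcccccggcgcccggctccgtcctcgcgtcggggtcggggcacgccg
Tpbg, chr9:85909647-85909844: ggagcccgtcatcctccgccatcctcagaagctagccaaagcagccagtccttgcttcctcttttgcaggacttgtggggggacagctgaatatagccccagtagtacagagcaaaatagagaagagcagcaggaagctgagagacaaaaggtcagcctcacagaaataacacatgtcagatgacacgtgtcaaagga
Epha4, chr1:77828846-77828994: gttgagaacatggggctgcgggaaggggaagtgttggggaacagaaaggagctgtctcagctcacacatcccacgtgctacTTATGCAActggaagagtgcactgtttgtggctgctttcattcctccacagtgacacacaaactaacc
All 3 sites higher in graft-derived cells held the PU.1 motif GAGGAAGT, read on the opposite strand as ACTTCCTC in Golim4. The site near 4930474N05Rik also held the RUNX motif TGTGGTTT (read as AAACCACA), and the site near Golim4 the AP-1 motif TGANNTCA. Of the sites higher in host microglia, the one near Epha4 held the C/EBP motif TTGCNNAA (read as TTATGCAA), and the ones near Pex2 and Tpbg held none of the motifs searched. The site near Pex2 lies in an annotated rRNA repeat element with 65.0% GC, so its tags may be shared with other copies and its values are uncertain.

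Members were narrow and scattered over nearly the whole genome. Their median width was 124 bases in untreated mice (89 to 339), against 132 for all merged peaks, and 159 after LPS (93 to 551), against 167. The median distance to the nearest start site was 161645 bases in untreated mice, with the farthest member 1472500 bases away, and 163027 after LPS. Members lay upstream of that start site in 49.1% and 48.8% of cases. Chromosome 10 carried the largest number of them (245 and 247), and chromosome 18 carried 122 and 113. The authors' annotation named no element at 2007 untreated members, while 29 lay in CpG islands, 22 in DNA transposons, 10 in rRNA repeats and 8 in satellites.

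Distance depends on the gene catalogue used. Against GENCODE vM1, which holds many short noncoding genes, 48.6% of the untreated and 48.9% of the LPS members lay over 100 kb from any transcript start, and 81.4% and 82.4% from the start of a protein-coding transcript. A GENCODE gene body contained 6.7% and 6.12% of them. Some members therefore sat close to a noncoding or segmental gene, with 54 and 51 of them less than 1 kb from a GENCODE start.

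Together the members took 2.31% ± 0.149 (SD, n = 3) of the tags in peaks in CD45.1 and 2.37% ± 0.0527 (n = 3) in CD45.2 libraries of untreated mice. After LPS the shares were 2.75% ± 0.178 and 2.54% ± 0.293 (n = 3 each). The ranges of the populations overlapped in both treatments. The smallest p that an exact permutation test of 3 against 3 libraries could give is 0.1, so these shares were not tested.

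In untreated mice, sites far from genes were called different between graft-derived cells and host microglia more often than peaks in general. Of the 2063 members that passed the filter of more than 10 tags in at least 1 library (40 did not), 376 were called, or 18.2%, where 6.43% of all 59170 tested peaks were. A call here is an adjusted p under 0.01 in DESeq2 with more than a 4-fold difference. Graft-derived cells were higher at 202 members (9.79%, against 3.78% of all peaks) and host microglia at 174 (8.43%, against 2.65%). Members called in each direction lay near 136 and 96 different start sites. The median log2 fold change over members was -0.03, beside 0.00 for all peaks. The median absolute log2 fold change was 0.69, beside 0.33 for all peaks, and 60.3% of members against 80.3% of all peaks differed by less than 2-fold.

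Many of the called members were near silent in the other population, while others kept tags there. Members called higher in graft-derived cells had a median of 26.4 normalized tags there and 2.02 in host microglia, where normalized tags are tags divided by the library's DESeq2 size factor. Those called higher in host microglia had a median of 23.6 there and 1.54 in graft-derived cells. At 101 of the 202 and 96 of the 174 called members every library of the lower population was at or under 3 tags, the limit taken here for a count of 0. For such sites the fold is given only as a lower bound. Members have fewer tags than other peaks, and large folds are more frequent at low counts. Among peaks with a mean of at least 20 tags, 59 members (5.73%, against 1.79% of all such peaks) were higher in graft-derived cells and 48 (4.66%, against 1.15%) in host microglia.

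The share of intergenic peaks called was larger in the bins farther from a start site, as the plot of called share by distance shows. Among intergenic peaks outside repeats within 20 kb of a start site, 4.1% were higher in graft-derived cells and 1.56% in host microglia. These shares were 7.57% and 5.7% at 100 to 150 kb, and 12.1% and 13.6% at 300 to 500 kb. The 95 tested members over 500 kb away had 22.1% and 14.7%. Promoter peaks had 0.796% and 0.811%. The median tag count fell over the same bins, from 25.5 within 20 kb to 16.5 over 500 kb, and its part in the trend was not tested. At the limit of the rule, of 302 tested peaks at 90 to 100 kb, 33 were higher in graft-derived cells and 18 in host microglia, and of 240 members at 100 to 110 kb, 21 and 7.

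**Figure D1:**
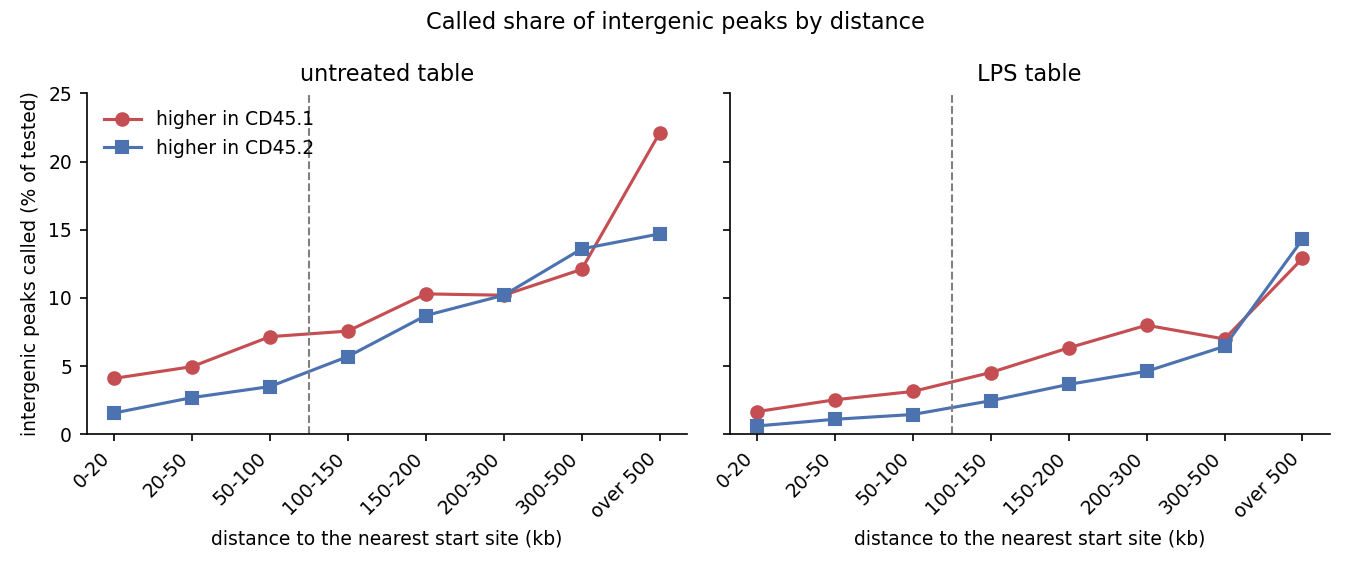
Share of tested intergenic peaks outside repeats (%) called higher in CD45.1 (circles) or CD45.2 (squares), by distance to the nearest start site in kb, in untreated mice (left) and after LPS (right). The dashed line is the 100 kb limit; in untreated mice the CD45.1 share rises from 4.1% within 20 kb to 22.1% over 500 kb.

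The member with the smallest adjusted p among those higher in graft-derived cells in untreated mice lay 222 kb from 4930474N05Rik and is the first sequence above. It had 114, 109 and 161 normalized tags in CD45.1 mice 4, 5 and 6, and 1.64, 3.10 and 9.74 in CD45.2. All CD45.1 libraries were above 100 and all CD45.2 libraries below 10 normalized tags. The log2 fold change was 4.58 ± 0.42 (SE, adjusted p = 1.5e-23).

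A site 825 kb from Basp1, which encodes a membrane-bound signalling protein, had 99.8, 109.98 and 101 normalized tags in CD45.1 libraries and 14.7, 7.74 and 9.74 in CD45.2 libraries. The populations were well apart, by a log2 fold change of 3.37 ± 0.34 (adjusted p = 8.5e-20). A site 410 kb from Dach1, a transcriptional cofactor, had 97.5, 101 and 86.6 against 1.64, 2.32 and 2.43. All host libraries there were at or under 3 tags, so graft-derived cells were at least 29.5-fold higher.

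Members near Cxcr4, the receptor of the chemokine CXCL12, were named at 2 positions. The one 113 kb upstream had 77.0, 105 and 114 normalized tags in CD45.1 and 10.7, 7.35 and 13.4 in CD45.2 libraries (log2 fold change 3.27 ± 0.35). The one 121 kb upstream was open in host microglia too, at 27.0, 19.7 and 44.6 against 107, 127 and 174 (2.14 ± 0.28). Both groups were apart at both sites, but the second fell under the 4-fold limit without CD45.1 mouse 6 or without CD45.2 mouse 5.

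The remaining named members higher in graft-derived cells ranged from a log2 fold change of 2.52 to 4.23. They lay near Golim4, a Golgi membrane protein (16.2-fold), Zfp608, a zinc finger protein (19.6-fold), Spred1, an inhibitor of Ras signalling (14.8-fold), the noncoding gene D16Ertd519e (7.91-fold) and Zfat, another zinc finger protein (5.7-fold). In each, the lowest CD45.1 library was above the highest CD45.2 library.

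Among members higher in host microglia, the smallest adjusted p belonged to the rRNA repeat site near Pex2, a gene of peroxisome assembly. It had 54.1, 63.4 and 61.0 normalized tags in CD45.1 libraries and 429, 327 and 265 in CD45.2 libraries, a log2 fold change of -2.50 ± 0.19 (adjusted p = 2.7e-33). It kept the most tags in graft-derived cells among these 10 members, and 5 of the 10 members in rRNA repeats were called in this direction.

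The site near Tpbg, a membrane glycoprotein gene, had 148, 108 and 123 normalized tags in host microglia and 1.87, 0.913 and 1.09 in graft-derived cells. Graft-derived libraries were all at or under 3 tags, so host microglia were at least 43.1-fold higher. The site 317 kb upstream of Epha4, an ephrin receptor, had 81.1, 64.6 and 84.4 against 0, 1.83 and 3.27, at least 26.1-fold. The groups did not overlap at either site. The one 161 kb upstream of Cdh5, the cadherin of endothelial junctions, had 87.7, 90.2 and 71.4 in host microglia and 3.73, 3.65 and 5.99 in graft-derived cells. The one 421 kb from Efnb2, an ephrin ligand, had 161, 119 and 114 against 32.6, 23.3 and 20.7. These groups did not overlap either, though graft-derived cells kept more tags near Efnb2 than near Cdh5. The promoter of Cdh5 itself had no peak in any table.

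A pair of sites near Celf4, which encodes a neuronal RNA-binding protein, was 8.1-fold and 11.5-fold higher in host microglia. A site 213 kb upstream of the noncoding gene F630206G17Rik had 119, 124 and 116 normalized tags in host microglia and 9.79, 6.85 and 5.45 in graft-derived cells, a log2 fold change of -4.005 ± 0.37 (adjusted p = 3.3e-24). Sites near Prickle1, a planar polarity gene, and Slco6c1, of the organic anion transporters, were 5.06-fold and 8.18-fold higher. In all 10 members the lowest host library was above the highest graft-derived library. Named members of either direction and treatment were picked by adjusted p in these same libraries. Separation of the groups is therefore likely by that choice and is a description only.

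**Figure D2:**
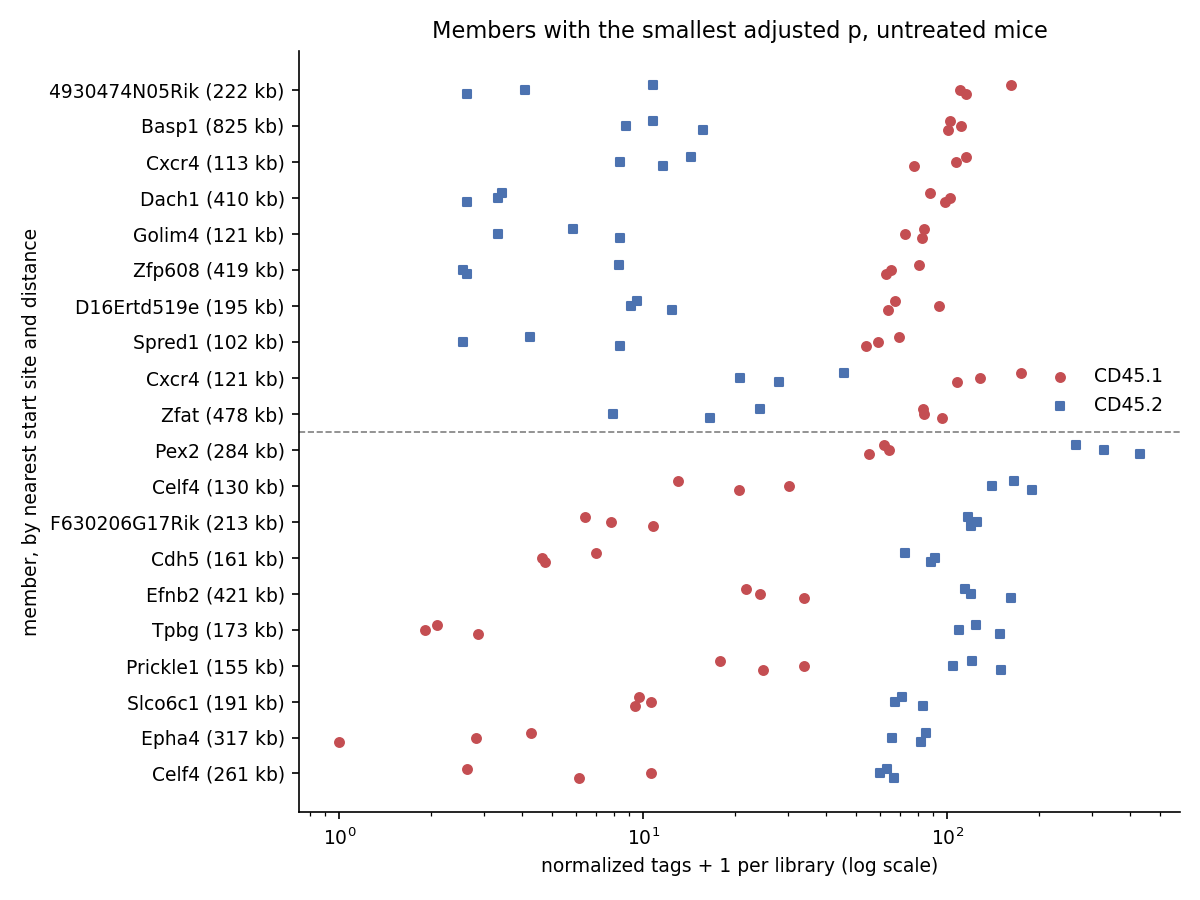
Normalized tags plus 1 per library (log axis) of the 10 members per direction with the smallest adjusted p in untreated mice, labelled by nearest start site and distance in kb. Circles are the 3 CD45.1 and squares the 3 CD45.2 libraries. Within a row no CD45.1 point overlaps a CD45.2 point, which the choice by adjusted p makes likely. Sites near Tpbg, Epha4 and Dach1 sit near 0 in the lower population.

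After LPS the same contrast gave fewer calls, in libraries with fewer tags. Of 1763 tested members (313 did not pass the filter), 180 were called, or 10.2%, where 2.97% of all 49180 tested peaks were. Graft-derived cells were higher at 109 members (6.18%, against 1.78%) and host microglia at 71 (4.03%, against 1.19%). Since both populations came from the same animals, the mouse was also fitted as a block, which left 68 and 44 members called. For the members the median log2 difference was 0.21, beside -0.01 for all peaks. Scaling by total tags moved the median of all peaks to 0.14 and that of the members to 0.37. Members with a mean of at least 20 tags numbered 579, of which 16 (2.76%, against 0.668% of all such peaks) were higher in graft-derived cells and 15 (2.59%, against 0.627%) in host microglia. Leaving out 1 library of 6 lowered the counts to between 41 and 75 for graft-derived cells and between 26 and 47 for host microglia.

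Several of the sites named after LPS were also named at rest. The site near 4930474N05Rik had 46.9, 81.5 and 88.7 normalized tags in CD45.1 mice 1, 2 and 3 and 7.88, 1.74 and 2.97 in CD45.2 (log2 fold change 4.44 ± 0.54, adjusted p = 3.1e-13). The site near Golim4 had 62.3, 69.1 and 62.7 against 8.76, 4.80 and 5.94. Graft-derived libraries were high throughout, and the groups did not overlap.

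The sequenced site near Ube2e3, a ubiquitin-conjugating enzyme gene, had 50.1, 63.9 and 61.3 normalized tags in CD45.1 and 10.5, 7.41 and 13.4 in CD45.2 libraries after LPS. A second site near Ube2e3, 191 kb away, had 39.6, 45.01 and 34.9 against 0.876, 0.436 and 2.08. Further named members higher in graft-derived cells lay near Zfp608 (5.28-fold), the pseudogene Gm13498 (6.9-fold), the noncoding gene Gm13483 (10.8-fold) and Trim24, a transcriptional cofactor (10.4-fold). All were apart between the populations.

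On the host side after LPS, the site near Tpbg had 55.2, 50.6 and 24.9 normalized tags in CD45.2 libraries and 0, 0.652 and 0 in CD45.1, at least 14.3-fold higher. The site near Epha4 had 69.2, 32.7 and 46.0 against 0, 3.26 and 0.944, at least 16.1-fold. The site near Cdh5 was at least 13.4-fold and a second site near Efnb2, 208 kb away, at least 18.1-fold higher. The sites near Pex2 and Celf4 kept log2 fold changes of -2.58 ± 0.29 and -2.81 ± 0.36. Sites near Mir8118 (6.87-fold), Prickle1 (16.5-fold), 4933430N04Rik (8.84-fold) and Mir691 (5.03-fold) completed the 10. This Prickle1 site, 138 kb upstream, is not the one named at rest, 155 kb upstream. The latter had a log2 fold change of -2.31 after LPS, beside -2.29 at rest. The Mir691 site lost its call without CD45.2 mouse 1.

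Matched members allow the calls of the treatments to be set side by side. Of the matched members, 127 were called higher in graft-derived cells at rest and 63 after LPS, and 59 were called in both (46.5% of the first list, 93.7% of the second). As a share of the 1278 matched members these calls were 9.94% and 4.93%, against 3.5% and 1.34% of all 39390 matched peaks, of whose calls 33.7% and 88.0% were in both. For host microglia, 83 (6.49%, against 2.01%) and 57 (4.46%, against 1.06%) were called, and 52 in both (62.7% and 91.2% of the lists, where all matched peaks gave 46.8% and 88.9%). No member was called in opposite directions. The libraries and mice of the tables are distinct, but the matching keeps only sites detected in both.

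The authors' separate peak lists per library, made before merging, describe detection in the same libraries. They are not independent of the tag counts. A member was in the lists of all 6 untreated libraries in 34.1% of cases, beside 46.0% of all merged peaks, and after LPS in 23.4%, beside 32.4%. In untreated mice 178 members were in all 3 CD45.1 lists and no CD45.2 list (8.46%, beside 3.69% of all peaks), and 124 the reverse (5.9%, beside 2.34%). After LPS these numbers were 107 (5.15%, beside 2.03%) and 74 (3.56%, beside 1.69%). Of the 202 members called higher in graft-derived cells at rest, 164 were in all 3 of that population's lists and 180 in none of the other's. A call of more than 4-fold makes this outcome likely, so it is a description only.

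Members were shared unevenly among genes. The untreated members had 777 nearest start sites, of which 352 had 1 member and 31 had 10 or more. The start sites with most members were those of Tbl1xr1, a subunit of corepressor complexes, and Prdm1, the repressor Blimp-1 (20 each), followed by Mir5127 (19), Ly86, a partner of the Toll-like receptor homologue RP105 (18), Mir5130 and Sall1 (16 each), Maf, Gm17746 and Bach2 (15 each) and, with equal counts, 1700016G22Rik, Klf4, Tomm20 and Zfp608 (14 each). Maf and Bach2 encode macrophage and lymphoid transcription factors. Among these 13, Sall1 alone had most of its members called, while the others had between 0 and 4.

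Sall1, a zinc finger repressor that maintains microglial identity, had its nearest members between 119 and 597 kb upstream of its start site. At rest, 15 of the 16 members were higher in host microglia and none in graft-derived cells, and the last, 526 kb away, was not called (log2 fold change -3.03 ± 1.38, adjusted p = 0.14). At 7 of the called members every graft-derived library was at or under 3 tags, with host microglia at least 4.03-fold to 7.79-fold higher, and at the remaining 8 the log2 fold changes ran from -3.33 to -2.39. Their summed normalized tags were 562, 564 and 545 in CD45.2 libraries and 69.96, 92.6 and 13.6 in CD45.1 libraries. Every host library was high and CD45.1 mouse 6 was the lowest of the graft-derived libraries.

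The member 349 kb upstream of Sall1 (chr8:91916722-91916875) was the tallest, with 147, 145 and 112 normalized tags in host microglia and 9.79, 30.6 and 5.45 in graft-derived cells. After LPS the peak at that place had 10.5, 27.5 and 14.2 against 0.809, 3.26 and 1.89. After LPS, of 8 Sall1 members 6 were tested and all were higher in host microglia. Summed tags over the 8 were 112, 141 and 101 in CD45.2 and 11.7, 15.0 and 9.91 in CD45.1 libraries. The sums of the treatments cover different peaks and are scaled separately.

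**Figure D3:**
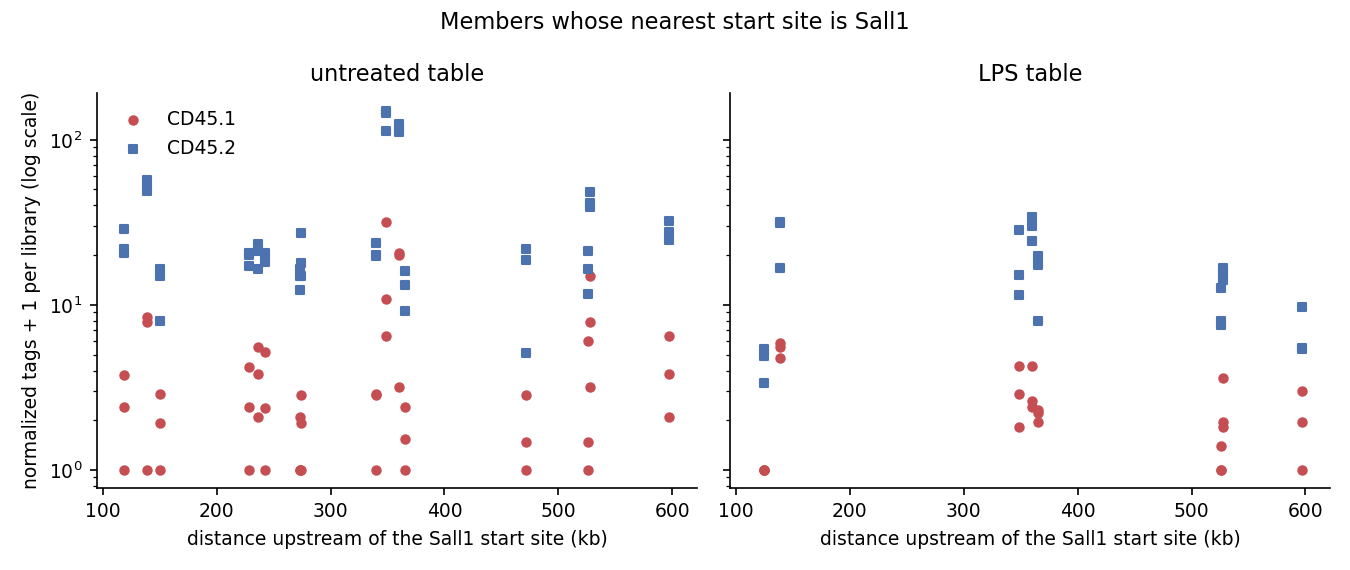
Normalized tags plus 1 per library (log axis) of each member whose nearest start site is Sall1, by distance upstream in kb, in untreated mice (left, 16 members) and after LPS (right, 8 members). Circles are CD45.1 and squares CD45.2 libraries; the tallest host values sit 349 and 360 kb upstream at rest, where host libraries reach 147 tags and graft-derived libraries stay at or below 30.6.

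Klf12, a Krüppel-like transcription factor, had 8 members upstream, of which 7 were higher in host microglia at rest and none in graft-derived cells. Their summed normalized tags were 170.4, 156 and 158 in CD45.2 and 11.2, 6.39 and 10.9 in CD45.1 libraries. After LPS 4 of 5 members were tested and all 4 were higher in host microglia. Over a list of 21 microglia identity genes, 5 were the nearest start site of any member at rest (Klf12, Mef2a, Mef2c, Sall1 and Sall3). Of the 30 members near them, 22 were higher in host microglia and 1 in graft-derived cells, with a median log2 fold change of -3.39 beside -0.03 for all members. The medians were -2.65 and -0.03 with members at the limit of 3 tags set to their lower bound. After LPS 10 of the 15 tested were higher in host microglia and none in graft-derived cells, with a median of -3.43, or -2.23 at the lower bounds, beside 0.21. Sall1 and Klf12 supplied all 22, whereas none of the 4 members near Mef2a was called and the 1 near Mef2c, a MADS box factor, was the member higher in graft-derived cells. The list was chosen with earlier results of these samples known and is no independent evidence.

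Over 39 macrophage transcription factors, 14 had a member, and of 113 tested members 8 were higher in graft-derived cells (7.08%, beside 9.79% of all members and 3.78% of all peaks) and none in host microglia, with a median log2 fold change of 0.00. After LPS none of 103 tested members was called, with a median of 0.20 beside 0.21 for all members. Zeb2, Runx1, Jun, Bach2 and Etv1 had no called member in either table. Of 18 genes of graft-derived or perivascular macrophages, among them Apoe and Ms4a7, none was the nearest start site of a member. A list of neural adhesion genes was drawn by the first letters of gene symbols, so it also took in Cdh5, the cadherin of endothelial junctions. Its genes had 16 members at rest, 7 of them higher in host microglia (43.8%, beside 8.43% of all members and 2.65% of all peaks) and none in graft-derived cells (median -1.84). Of these 7, 3 lay near Cdh5, 2 near Nlgn1 and 1 each near Epha4 and Csmd3. After LPS 2 of 11 were higher in host microglia (18.2%, beside 4.03% of all members and 1.19% of all peaks), near Cdh5 and Epha4.

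A place on chromosome 12 went the other way. It was chosen after its values were seen, because 2 of the named sites after LPS lie there. The authors' annotation names Mir6388 and Mir7094-2 as nearest, 384 and 477 kb away, but GENCODE places immunoglobulin variable segments beside these peaks. The site at chr12:116550286-116550428 was 450 bases from the start of the segment Gm16633. It had 41.6, 62.6 and 77.4 normalized tags in CD45.1 libraries after LPS and 0, 0 and 0.594 in CD45.2, so graft-derived cells were at least 18.8-fold higher. The site 313 bases from the segment Gm16966 had 39.6, 58.7 and 70.3 against 0, 0 and 3.56, but lost its call without any 1 of the CD45.1 libraries.

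At rest 8 of the 9 members nearest to an immunoglobulin segment on chromosome 12 were higher in graft-derived cells, and after LPS 7 of the 10 tested, with none higher in host microglia. The uncalled one at rest, nearest to a constant segment, had 65.8, 78.9 and 42.5 normalized tags in CD45.1 and 84.4, 61.1 and 69.4 in CD45.2 libraries. Summed normalized tags were 305, 283 and 261 in CD45.1 and 90.9, 63.5 and 75.9 in CD45.2 libraries at rest, and 213, 281 and 318 against 29.8, 22.2 and 27.9 after LPS. The CD45.1 libraries were above all CD45.2 libraries in both treatments. The B cell markers Cd79a and Ms4a1 had no promoter peak in either table, but neither did the macrophage markers Csf1r and Aif1. The sort gate required CD11b, an antigen of myeloid cells. The part of B cells in these values was not tested.

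Members were not spread evenly along chromosomes, and many stood in groups. With a gap of at most 50 kb between neighbours and at least 5 members, 91 clusters held 758 untreated members (36.0%), and 89 clusters held 745 members after LPS (35.9%). Of these, 68 untreated clusters (74.7%) overlapped a cluster of the LPS table. Tags were summed over each cluster and tested beside the remaining peaks, with a call at adjusted p under 0.01 and more than 2-fold. In untreated mice 6 of the 91 clusters were higher in graft-derived cells and 5 in host microglia, where 5.67% and 3.86% of all features tested were. After LPS 11 and 4 of the 89 clusters were called, where 2.35% and 1.42% of all features were. Most of these features were single peaks and not sums, so the shares are not like for like.

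The clusters with most members were not called. The largest at rest had 28 members over 263 kb of chromosome 13 between Ly86 and Rreb1, a zinc finger factor of Ras signalling. Its summed normalized tags were 879, 949 and 859 in CD45.1 and 909, 1074 and 1010 in CD45.2 libraries, with overlapping groups and no call (log2 fold change -0.16 ± 0.09). The clusters between Irf2bp2 and Tomm20 (21 members), between Bach2 and Map3k7 (20), near Prdm1 (20) and near Dusp6 and Gm20110 (17) had log2 fold changes between -0.07 and 0.17. Zeb2, Mir5130, Tbl1xr1 and Gm17746 gave values between -0.19 and 0.03. Marcks, the gene of a substrate of protein kinase C, had 617, 685 and 560.3 normalized tags in its 12-member cluster in CD45.1 and 1067, 864 and 813 in CD45.2 libraries. These groups did not overlap (-0.55 ± 0.12, adjusted p = 5.2e-05), but the difference was under 2-fold.

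In 4 of the 5 clusters higher in host microglia every member was called singly. The cluster of 9 members over 56.0 kb near 4933430N04Rik on chromosome 8 had 310, 262 and 252 normalized tags in CD45.2 and 21.5, 27.8 and 13.1 in CD45.1 libraries (log2 fold change -3.70 ± 0.24, adjusted p = 6.7e-50), and all 9 members were called singly. The 6 members near Klf12 gave 128, 124 and 127 against 8.40, 5.48 and 9.26 (-4.08 ± 0.36), again with all 6 called. The groups were far apart in both clusters. Near F630206G17Rik and Sall1 all 5 members of each cluster were called (-3.86 ± 0.24 and -3.53 ± 0.38), and near Zfp536, a zinc finger gene, 3 of 6 (-2.57 ± 0.26).

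Clusters higher in graft-derived cells differed by less. The 7 members between Ahr, the aryl hydrocarbon receptor, and Mir680-3 summed to 241, 272 and 257 normalized tags in CD45.1 and 66.4, 52.2 and 77.9 in CD45.2 libraries (1.98 ± 0.18). The 7 between Itga4, an integrin of leukocyte homing, and Ube2e3, which include the third sequence above, summed to 302, 346 and 342 against 127, 98.3 and 146 (1.42 ± 0.16). All 7 members of both clusters leaned the same way, though 4 and 3 of them were called singly, and host microglia kept part of the signal. Clusters near Adgrl2, an adhesion receptor (1.88 ± 0.21), between Ankrd16 and E030013I19Rik (1.69 ± 0.21), near Fam43a (1.05 ± 0.22) and between Foxn2 and Gm4832 (1.01 ± 0.21) completed the list, of which the last pair lost its call without CD45.1 mouse 6 or CD45.2 mouse 5.

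After LPS the clusters near Itga4 (1.57 ± 0.19), Ahr (1.39 ± 0.25) and Ankrd16 (1.21 ± 0.25) were called higher in graft-derived cells again, and those near 4933430N04Rik (-2.88 ± 0.35) and Zfp536 (-1.11 ± 0.31) in host microglia. The largest fitted difference toward graft-derived cells was near Frmd6, of the Hippo pathway, at 73.2, 92.0 and 84.9 normalized tags against 14.9, 6.98 and 9.5 (3.11 ± 0.36). Clusters near Trps1, a GATA-type repressor (2.63 ± 0.33), Clic5 (2.60 ± 0.34), Dab2, an endocytic adaptor (1.87 ± 0.29), Gm15326 (1.56 ± 0.26), 4930578N18Rik (1.33 ± 0.24), Tshz1 (1.29 ± 0.29) and Gja1, the gap junction protein connexin 43 (1.18 ± 0.26) were also called.

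On the host side after LPS, the cluster between 4930503O07Rik and Mir205 had 63.1, 52.3 and 47.2 normalized tags against 1.62, 1.96 and 1.42. Every graft-derived library was under 3 tags, so host microglia were at least 17.7-fold higher. The cluster near Prkcq, protein kinase C theta, had 53.4, 62.4 and 72.7 against 4.04, 9.13 and 7.55 (-3.26 ± 0.43). The groups did not overlap at either. The calls near Zfp536, Tshz1, Gja1 and Ankrd16 were lost when single libraries were left out, and those near Zfp536 and Tshz1 also in the fit blocked by mouse.

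**Figure D4:**
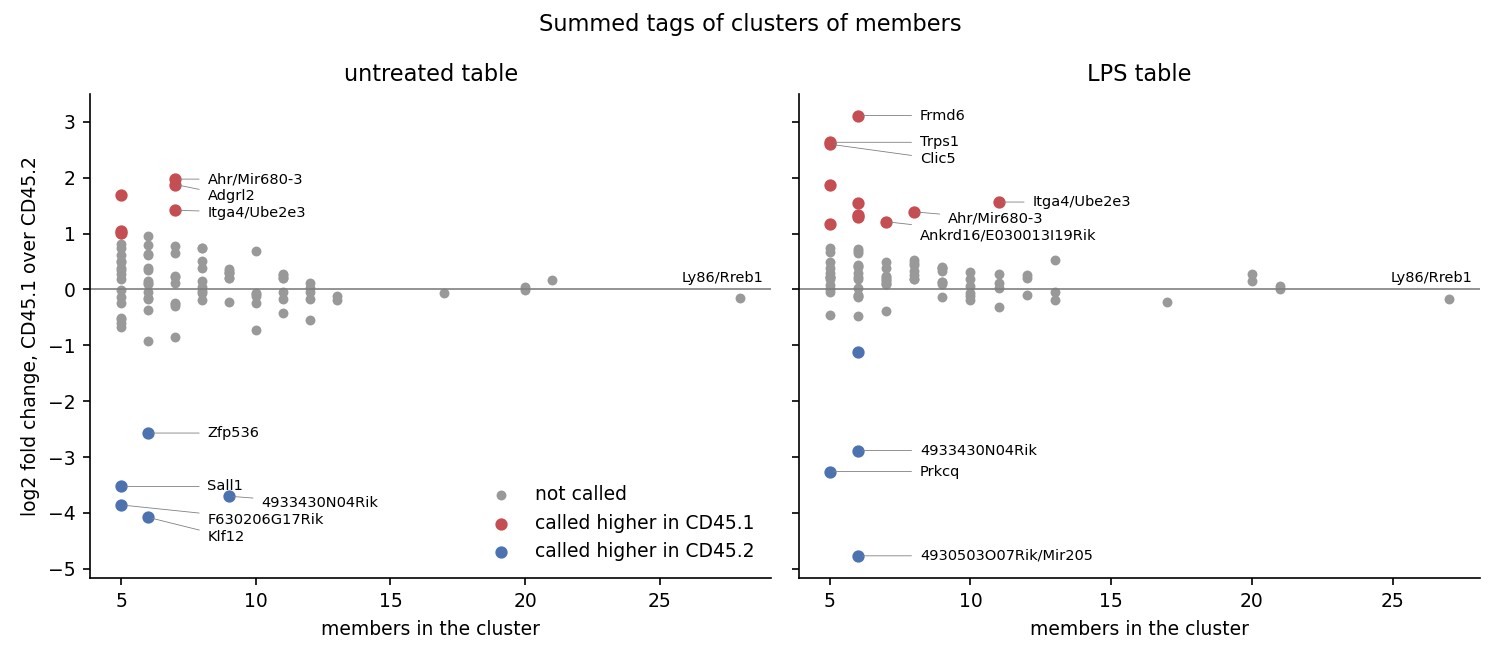
Log2 fold change of summed tags, CD45.1 over CD45.2, against the number of members in each cluster, in untreated mice (left, 91 clusters) and after LPS (right, 89 clusters). Coloured points were called; clusters of 12 or more members lie within 1 log2 unit of 0, and the cluster near Klf12 (-4.08) lies lowest at rest.

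More matched members rose than fell after LPS. In 1 model over the 12 libraries, with 1273 matched members tested and a call at adjusted p under 0.05 with more than 2-fold, 163 members rose in graft-derived cells (12.8%, against 6.78% of all 39235 matched peaks) and 45 fell (3.53%, against 4.93%). In host microglia 168 rose (13.2%, against 7.69%) and 63 fell (4.95%, against 3.69%). Of these, 104 rose and 26 fell in both populations, and none moved in opposite directions. The median log2 change over members was 0.22 in graft-derived cells and 0.07 in host microglia, beside -0.00 and -0.01 for all matched peaks. With scaling by total tags the medians were 0.17 and -0.07 for members and -0.04 and -0.15 for all peaks, so the host median changed sign, and 108 members rose and 23 fell in graft-derived cells. Treatment and table go together, since peaks were called, merged and counted per treatment in different mice, and the widths of matched peaks differ, so LPS and these steps cannot be told apart. The sort gate left out Ly6C/G+ cells. Of 7 neutrophil markers, 2 had a promoter peak after LPS and none at rest, and the part of such cells in these changes was not tested.

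The pair of sites with the smallest adjusted p among those higher after LPS was the same in both populations. A site 119 kb upstream of the pseudogene Gm7854 on chromosome 5 had, scaled over the 12 libraries, 8.09, 5.51 and 7.88 normalized tags in CD45.1 libraries at rest and 73.8, 113 and 127 after LPS. In CD45.2 libraries it had 19.6, 9.75 and 11.8, then 160.2, 99.8 and 96.3. The log2 changes were 3.86 ± 0.35 and 3.16 ± 0.31. The peak was 150 bases wide in the untreated and 248 in the LPS table.

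A site 675 kb from 1700019E08Rik on chromosome 2 rose by 3.801 ± 0.35 in graft-derived cells and 5.01 ± 0.44 in host microglia, to at least 82.5 normalized tags in all LPS libraries from at most 11.5 at rest. Sites near Dusp6 and Jun were among the 5 with the smallest adjusted p in graft-derived cells, and the former also in host microglia. The one 162 kb from Dusp6, a phosphatase that inactivates ERK, rose by 2.33 ± 0.27 and 2.35 ± 0.27. The one 157 kb upstream of Jun, a subunit of AP-1, rose by 2.03 ± 0.23 and 1.94 ± 0.27. In host microglia, sites near Zfat (2.73 ± 0.32) and Pabpc2 (2.11 ± 0.25) were also among the 5 with the smallest adjusted p. These sites rose by 1.27 ± 0.24 and 1.08 ± 0.23 in graft-derived cells.

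The sites with the smallest adjusted p among those lower after LPS fell in both populations. A site 242 kb from Mir21c had 34.9, 44.4 and 27.9 normalized tags in CD45.1 libraries at rest and 4.10, 2.92 and 2.80 after LPS, and 52.2, 59.0 and 47.3, then 3.78, 6.32 and 6.56, in CD45.2. The log2 changes were -3.22 ± 0.58 and -3.05 ± 0.46, with no overlap between treatments. Sites near Atp2b1, a plasma membrane calcium pump, and Ipo11, a nuclear import receptor, fell in both populations, by 1.76 to 2.45 on the log2 scale. Arhgap5 (-2.45 ± 0.39) and Mir3961 (-2.64 ± 0.46) were named for graft-derived cells, and had -1.79 ± 0.34 and -1.53 ± 0.33 in host microglia. Dleu7 (-2.50 ± 0.37) and Prdm1 (-2.13 ± 0.36) were named for host microglia, and had -1.28 ± 0.32 and -1.50 ± 0.31 in graft-derived cells. All the sites given here for this contrast kept the calls for which they were named in the 15 alternatives tried.

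**Figure D5:**
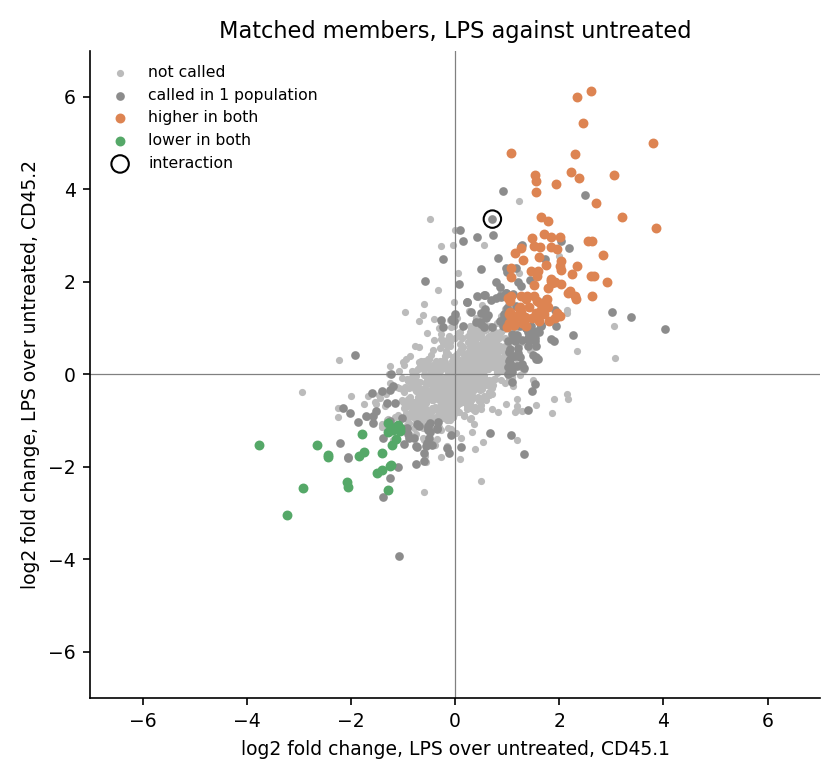
Log2 fold change of 1273 matched members, LPS over untreated, in CD45.1 (x axis) and CD45.2 (y axis). Coloured points were called in both populations (104 higher, 26 lower), dark grey points in 1; the circled member near Maf had a log2 change of 0.72 in CD45.1 and 3.36 in CD45.2.

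Only 1 matched member (0.0786%, against 0.245% of all matched peaks) had an LPS response that differed between the populations by the interaction term at adjusted p under 0.05. At an unadjusted p under 0.05 there were 101 (7.93%, against 5.33% of all matched peaks), and edgeR called 2. The member lies 284 kb from Maf at chr8:117947087-117947240. Graft-derived cells had 36.4, 25.7 and 75.6 normalized tags there at rest and 60.4, 94.3 and 72.05 after LPS. Host microglia had 2.72, 3.69 and 8.24 at rest and 51.7, 54.3 and 50.3 after LPS. The site was well open in graft-derived cells in both treatments and low in every host library at rest. The log2 change was 0.72 ± 0.32 in graft-derived and 3.36 ± 0.44 in host cells, an interaction of -2.64 ± 0.54 (adjusted p = 0.00091). The next 5 members, near Zfat (adjusted p = 0.069), Tbl1xr1 (0.098), Fam43a, Mir669h and Ankrd55, were not called.

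The sequence of members differed in composition from that of other peaks. In the 200 bases around the centre, the median GC content was 47.5% in members and 52.0% in all merged peaks of both tables. Members higher in graft-derived cells at rest had 42.0% and those higher in host microglia 49.0%. GC content bears on how often any motif occurs, so the shares are a description.

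At rest the AP-1 motif TGANTCA was in 11.7% of members and 8.11% of all peaks, with 17.3% of members higher in graft-derived cells and 9.2% of those higher in host microglia. The C/EBP motif TTGCNNAA was in 13.2% and 9.82%, with 17.3% and 10.9%. The PU.1 motif GAGGAAGT was in 12.2% and 9.45%, with 14.9% and 9.77%. The MEF2 consensus was in 3.95% and 1.98%, with 7.92% and 4.6%, and the IRF motif GAAANNGAA in 11.7% and 8.33%, with 15.8% and 12.1%. The RUNX motif TGTGGTTT was in 3.23% and 2.33%, with 6.44% and 3.45%. The AP-1 motif TGANNTCA was in 10.7% and 8.94%, with 15.3% and 12.6%. For all of these motifs the share was larger in members higher in graft-derived cells than in those higher in host microglia. The NF-kappaB motif GGANTTNCC was in 2.81% and 3.07%, with 2.48% of members higher in graft-derived cells and 4.02% of those higher in host microglia.

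The CTCF consensus was in 5.14% of members, 5.07% of all peaks and 9.99% of intergenic peaks within 20 kb of a start site. It was in 2.48% of members called higher in graft-derived cells, 2.3% of those called higher in host microglia and 5.87% of members tested and not called. After LPS the AP-1 motif TGANTCA was in 19.3% of members and 13.4% of all peaks, with 32.1% of members higher in graft-derived cells and 21.1% of those higher in host microglia. The PU.1 motif was in 16.5% and 4.23% of these, the last being 3 of 71 members. The C/EBP motif was in 20.2% and 19.7% of the same members. Matches were searched on both strands and can overlap, and a match is not shown to be bound.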

How the data were processed

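The authors deposited tags per merged peak, in 1 table per treatment, as unnormalized estimated counts, of which 49.1% (untreated) and 47.7% (LPS) were not whole. Per the submitters' processing notes and the study's methods, reads were processed with bcl2fastq 2.17.1.14, Bowtie2, Picard 1.108 and HOMER on mm9, with a reproducibility filter on peaks and DESeq2 for comparison. Peaks were called per library and merged per treatment.

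Counts were rounded and tested with DESeq2 1.42.0 (R 4.3.3; Wald test, median-of-ratios scaling, peaks with more than 10 tags in at least 1 library, Benjamini-Hochberg adjustment over the whole table). The fit was tested on simulated data. Alternatives were edgeR 4.0.16, other filters and scalings, a mouse block, other gaps and overlaps, and leaving out each library. Replicates are separate mice. Both populations came from the same mouse, which pairs them by design; deviations of same-mouse libraries correlated at r = 0.081 to 0.087 at rest and at -0.066 to 0.15 after LPS. Sites named are those with the smallest adjusted p (10 per direction and table, 5 per LPS contrast, 6 interactions), the 10 clusters and start sites with most members, every called cluster and fixed gene lists; 1 site that this rule names is not reported here. The members and lists were chosen with earlier results of these data known. Counting error alone limits single members; 3 tags per library was the floor.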

Additional observations from a re-analysis of the deposited data

Results flagged for a closer look

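The member near Maf stood out because its response to LPS differed between the populations by a test of the difference itself. Its interaction, the log2 change in graft-derived cells minus that in host microglia, was -2.64. The 3 host libraries of untreated mice had at most 8.24 normalized tags and the 3 of LPS mice at least 50.3, whereas graft-derived libraries ranged from 25.7 to 75.6 at rest and from 60.4 to 94.3 after LPS. The call near Maf held in 14 of 16 alternatives, and was lost with scaling by total tags (-2.48) and without CD45.2 LPS mouse 1 (-2.68). The untreated and LPS values come from different mice and from separately merged tables, which cannot be told apart from the treatment.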

How the results depend on the processing

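No called site, cluster or count reversed its direction under an alternative, but the median LPS change over members in CD45.2 went from 0.07 to -0.07 with scaling by total tags. Recomputed counts stayed within 1.5 times their value in 88 cases and moved further in 33. Single sites and clusters kept their side of the threshold in 1054 cases, lost their call in 27 and gained one in 3. Requiring a mean of at least 20 tags left 59 members higher in CD45.1 and 48 in CD45.2 at rest, and 16 and 15 after LPS. Fewer members were tested, but the called shares fell as well. At rest they went from 9.79% and 8.43% to 5.73% and 4.66%, and after LPS from 6.18% and 4.03% to 2.76% and 2.59%. The shares of all peaks fell too. At rest these went from 3.78% and 2.65% to 1.79% and 1.15%, and after LPS from 1.78% and 1.19% to 0.668% and 0.627%. With the mouse as a replicate block 68 and 44 members were called after LPS, and 172 and 144 at rest, and 11 and 13 clusters. Scaling by total tags gave 108 members higher and 23 lower after LPS in CD45.1 and 0 interactions, and edgeR gave 2 interactions. A cluster gap of 20 kb gave 4 called clusters at rest and 9 after LPS, and a gap of 100 kb gave 23 after LPS. The cause of the shifts with scaling and block was not tested.

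Leaving out 1 library at a time gave 134 to 190 members higher in CD45.1 and 128 to 162 in CD45.2 at rest, and 41 to 75 and 26 to 47 after LPS. Higher after LPS were 113 to 177 in CD45.1 and 111 to 163 in CD45.2, lower were 23 to 51 and 37 to 62, interactions were 1 to 3, and called clusters were 9 to 12 at rest and 11 to 14 after LPS. The counts that moved by over 1.5 times were those without CD45.2 untreated mouse 5 (134 higher in CD45.1 at rest, and 111 higher and 41 lower after LPS in CD45.2), without CD45.2 untreated mouse 6 (40 lower after LPS in CD45.2, and 3 interactions), without CD45.1 LPS mouse 3 (23 lower after LPS in CD45.1) and without CD45.2 LPS mouse 3 (37 lower in CD45.2). Interactions numbered 2 without CD45.1 untreated mouse 5 and without CD45.2 LPS mouse 1 or 2. After LPS, members higher in CD45.1 numbered 58 and 57 without CD45.1 mouse 2 or 3 and 41 and 52 without CD45.2 mouse 2 or 3. Members higher in CD45.2 numbered 26, 36 and 42 without CD45.1 mouse 1, 2 or 3 and 41, 39 and 47 without CD45.2 mouse 1, 2 or 3. Without CD45.2 untreated mouse 4, whose share of tags in peaks was low, 190 and 143 members were called at rest. A member had a median of 11 tags per library after LPS and 20 at rest, which limits precision.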
